A study of Mus musculus with 12 samples.

Results

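Of the 10057 peaks in the P7 and P15 lists of AGO2-bound target RNA from mouse cerebellum, 312 were intronic, with 176 of the 4884 P7 peaks (3.6%, exact 95% binomial interval 3.1 to 4.17) and 136 of the 5173 P15 peaks (2.63%, 2.21 to 3.1). A peak was counted as intronic when it lay in a GENCODE M21 gene body on its own strand and overlapped no annotated exon of any gene on that strand, in mm10 coordinates. Of the remaining peaks, 4097 at P7 and 4485 at P15 overlapped an exon, and 611 and 552 lay in no gene body on their strand. All 312 intronic peaks lay wholly inside an annotated intron. The rule used position alone, so width and overlap between lists were not read in the choice. Position relative to exons was, including exons of small RNA genes, so no peak on such an exon could be a member. A wider peak also touches an exon more easily, so width and distances to exons and small RNA genes are not fully free of the rule.

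The animals were homozygous for a conditional Spy3-tagged Ago2 allele at both ages, and their genotype is labelled WT. An adeno-associated virus that expresses Cre under the Purkinje cell promoter L7 was injected into the ventricles at birth, so the tag depends on where L7-Cre is active. Cerebella were taken at P7 and P15, and tagged AGO2 was captured through SpyCatcher3. Each age had 2 target, 2 miRNA and 2 input libraries, 12 in all, and nothing in the labels says whether replicates came from separate animals. The P7 list is named with both P7 target libraries and the P15 list with target replicate 1, while P15 target replicate 2 also has a list of its own, with 158 intronic peaks among 1624. No file gives a height or a count per peak and library, so there is no error between replicates for any peak, and whether the P15 list also holds reads of replicate 2 is not given in the sources used here. Of 26 Purkinje cell marker genes, 14 had an exonic peak at each age, as had 14 (P7) and 16 (P15) of 21 granule cell markers. Among astrocyte and Bergmann glia markers 9 and 8 of 12 had one, and among oligodendrocyte markers 5 of 12 at each age. Of 8 molecular layer interneuron markers 1 and 2 had one. The count was 0 of 9 for microglia and blood markers and 0 of 9 for endothelial and mural markers. The share over all annotated genes is not given, so these counts are description only.

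AGO2 is the protein that carries a microRNA and pairs it with target RNA, and most known target sites lie in mature messenger RNA. Introns are removed from the transcript in the nucleus, whereas the silencing complex works mainly in the cytoplasm. Some introns also host genes for small RNAs, such as microRNAs and small nucleolar RNAs, that are cut from the host transcript.

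The intronic peaks fell into kinds by width and crowding, a division drawn after the values were seen. Narrow peaks of at most 30 nt with no other intronic peak of the list within 1000 nt made up 119 of 176 at P7 (67.6%) and 72 of 136 at P15 (52.9%). Peaks that lay within 1000 nt of another intronic peak on the same strand, called clustered here, numbered 34 in 13 groups at P7 and 21 in 7 groups at P15. The rest, lone peaks wider than 30 nt, numbered 23 at P7 and 43 at P15.

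The sequence of a peak bears on how the narrow kind is read, and it could be read where a peak lay on an exon of a gene on the opposite strand, since GENCODE transcripts were the sequence source and no genome sequence was used. This gave 5 intronic peaks. They are set beside the fixed part of the 5′ adapter that, per the labels' protocols, was ligated to the RNA together with random bases. Capitals mark the longest run shared with that adapter where it reached 10 nt, and all sequences read 5′ to 3′ on the strand of the peak.
5′ adapter, fixed part: GTTCAGAGTTCTACAGTCCGACGATC
Gm6213, chr8:39310603-39310627, plus strand, P7: agaaaAGTTCTACAGTCCagcttaa
Gm20275, chr9:59926285-59926308, minus strand, P7: aaCAGAGTTCTAgtcccacaattg
Rtn4ip1, chr10:43950789-43950810, plus strand, P15: actatTCCGACGATCtcttgcc
Ppp2r2c, chr5:36876758-36876799, plus strand, P7: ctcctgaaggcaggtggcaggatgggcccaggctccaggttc
Tnpo2, chr8:85053593-85053658, plus strand, P7: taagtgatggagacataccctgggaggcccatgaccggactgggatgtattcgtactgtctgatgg

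The 3 narrow intronic peaks held runs of 13 nt (Gm6213), 10 nt (Gm20275) and 10 nt (Rtn4ip1) of the adapter. In the wider pair the longest shared runs were 4 nt (Ppp2r2c) and 3 nt (Tnpo2). The 3 narrow peaks were each found again in the P15 replicate 2 list, and the wider pair in neither other list. Because 3 sequences cannot describe 191 lone narrow peaks, the narrow peaks outside gene bodies are shown as the nearest class with more readable sequence. Among readable narrow P7 peaks of this class that were listed at both ages, 8 held a run of at least 10 nt and 1 did not. The latter lay opposite Gm43323, with a longest run of 3 nt. The sites printed here were chosen from those with such a run. Each lies opposite an exon of the gene named and was listed at both ages, with the same capitals.
Opposite Cxcr4, chr1:128588562-128588587, plus strand, P7: ctacAGTTCTACAGTCCtacacacag
Opposite Proser2, chr2:6097863-6097886, plus strand, P7: aaAGAGTTCTACAGTCgtaaatct
Opposite Cers6, chr2:69105031-69105054, minus strand, P7: agggtaggGTCCGACGATCtccca
Opposite Eno2, chr6:124762659-124762681, plus strand, P7: tgtacACAGTCCGACGAcaagat
Opposite Pcm1, chr8:41261379-41261403, minus strand, P7: gctgagTCTACAGTCCGAacatcct

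A shared run of at least 10 nt was present in 9 of 13 readable narrow peaks outside gene bodies at P7 (69.2%, exact 95% interval 38.6 to 90.9) and in 9 of 10 at P15 (90.0%, 55.5 to 99.7). Narrow exonic peaks held it in 9 of 294 cases at P7 (3.06%) and 5 of 322 at P15 (1.55%). Exonic peaks wider than 30 nt held it in 2 of 3297 and 2 of 3854. Of 4233275 windows of 25 nt cut from the longest transcript of each gene, 0.0257% held such a run. The windows were read on the strand of the transcript, whereas the readable intronic and outside-gene peaks lie opposite an exon. Their width was also fixed, unlike that of the peaks in the classes above. No readable narrow peak of these classes in either series list held a run of that length from the 3′ adapter or from the reverse complement of the 5′ adapter. The runs came from different stretches of the adapter, from bases 4 to 13 in Gm20275 to bases 17 to 26 in Rtn4ip1. The part of such runs in the placing of the narrow intronic peaks was not tested, and for the other narrow intronic peaks the sequence was not analysed here.

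**Figure D1:**
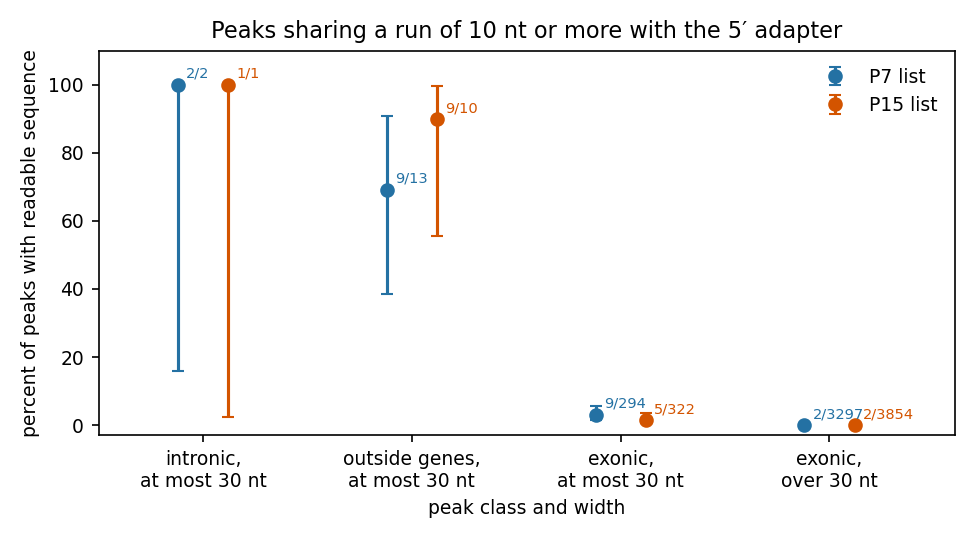
Percent of peaks with readable sequence (y axis) that share a run of 10 nt or more with the fixed part of the 5′ adapter, by peak class and width (x axis), for the P7 and P15 lists. Points carry their counts, and bars are exact 95% binomial intervals, which for the 2 and 1 readable narrow intronic peaks reach down to 15.8% and 2.5%.

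Width set intronic peaks apart from exonic peaks at both ages. The median width was 26 nt at P7, with quartiles of 24.8 and 43.0 nt and a range of 18 to 181 nt, and 28 nt at P15, with quartiles of 25 and 45.2 nt and a range of 22 to 111 nt. Exonic peaks had medians of 52 and 54 nt, and peaks outside gene bodies 26 and 27 nt. Widths of 22 to 28 nt held 113 of 176 intronic peaks at P7 (64.2%) and 71 of 136 at P15 (52.2%), against 5.76% and 4.77% of exonic peaks and 66.4% and 51.4% of peaks outside gene bodies. The width profile of intronic peaks thus lay beside that of peaks outside genes, and no test was made of the widths.

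**Figure D2:**
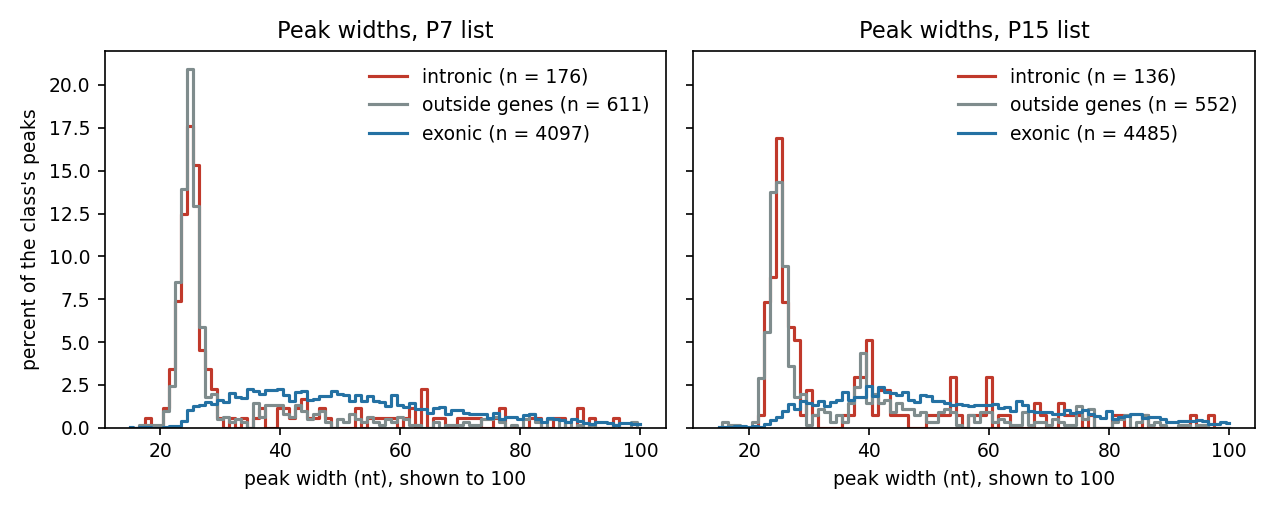
Percent of each class's peaks (y axis) at each width from 15 to 100 nt (x axis) for intronic, exonic and outside-gene peaks of the P7 list (left) and the P15 list (right). Intronic and outside-gene peaks pile up near 25 nt, while exonic peaks spread around medians of 52 and 54 nt.

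The narrowest intronic peaks were an 18-nt peak in Cmss1 at P7, which belonged to a clustered group, and lone peaks of 21 nt in Ski and Grik1, a repressor of SMAD signalling and a kainate receptor subunit. At P15 the narrowest was the 22-nt Rtn4ip1 peak shown above, followed by 23-nt peaks in Gm13483, Camta1, Dpysl5 and Reg3d. The widest at P7 were peaks of 181 and 106 nt in the long noncoding RNA gene Gm19951, 132 nt in Ogt, 111 nt in Kcnip1 and 96 nt in Il31ra. At P15 the widest were 111 nt in Cdk8, 97 nt in 9330185C12Rik, 94 nt in the overlapping genes Mamdc4 and Phpt1, 86 nt in 4930555B11Rik and 82 nt in Gphn. All 5 of the widest at P7 were clustered, against 2 of 5 at P15, and the narrowest were lone peaks apart from the one in Cmss1.

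Intronic peaks recurred between the P7 and P15 lists more often than exonic peaks. With an overlap of at least 1 nt on the same strand, 92 of 176 P7 intronic peaks (52.3%, exact 95% interval 44.6 to 59.8) met a P15 peak, against 919 of 4097 exonic peaks (22.4%) and 28.5% of all P7 peaks. The difference was 29.8 percentage points (Fisher's exact test, two-sided, Benjamini-Hochberg over 6 tests, adjusted p = 1.01e-16). In the other direction 94 of 136 P15 intronic peaks (69.1%, 60.6 to 76.8) met a P7 peak, against 943 of 4485 exonic peaks (21%) and 27.4% of all P15 peaks, a difference of 48.1 points (Fisher's exact test, adjusted p = 9.45e-32). These tests treat each peak as a unit within 1 list per age, so they do not measure the spread between animals.

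The intronic share is 9.73% in the list of P15 replicate 2, against 3.6% in the P7 list and 2.63% in the P15 list. The replicate 2 list is shorter and holds 785 exonic and 158 intronic peaks, so few exonic peaks of the longer lists could meet it. It was met by 114 of 176 P7 intronic peaks (64.8%) against 316 of 4097 exonic (7.71%) and 18.3% of all P7 peaks (Fisher's exact test, adjusted p = 7.11e-74). It was met by 108 of 136 P15 intronic peaks (79.4%) against 510 of 4485 exonic (11.4%) and 20.6% of all P15 peaks (adjusted p = 7.07e-71, Fisher's exact test). Counted from the replicate 2 side, 117 of 158 intronic peaks (74.1%) met the P7 list, against 311 of 785 exonic peaks (39.6%) and 54.9% of all its peaks, a difference of 34.4 points (Fisher's exact test, adjusted p = 2.33e-15). With the P15 list the gap seen above was not past 0.05 when counted this way: 108 of 158 intronic peaks (68.4%) met it, against 504 of 785 exonic peaks (64.2%) and 65.3% of all its peaks, a difference of 4.15 points (Fisher's exact test, adjusted p = 0.433). All 3 lists shared 87 of the 176 P7 intronic peaks.

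Intronic peaks were also compared with peaks outside gene bodies. P7 intronic peaks met the P15 list less often, 52.3% against 62.4% (381 of 611), a difference of -10.1 percentage points (Fisher's exact test, adjusted p = 0.022), and this was no longer past 0.05 when peaks on an exon of the opposite strand were left out (adjusted p = 0.0506) or when peaks of at most 30 nt were compared alone (adjusted p = 0.252). Among peaks wider than 30 nt the difference was -18.1 points, 49.1% against 67.2% (Fisher's exact test, adjusted p = 0.0206), and against the replicate 2 list, all widths, it was -11.2 points (Fisher's exact test, adjusted p = 0.00443). P15 intronic peaks met the P7 list in 69.1% of cases and peaks outside genes in 69.0% (381 of 552; Fisher's exact test, adjusted p = 1). The exact intervals of those shares were 60.6 to 76.8% and 65.0 to 72.9%.

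The gap to exonic peaks was also compared within each width class. Among peaks of at most 30 nt, 53.7% of intronic and 18.1% of exonic P7 peaks met the P15 list, and 86.7% against 13.3% of P15 peaks met the P7 list. Among wider peaks the shares were 49.1% against 22.9% and 47.5% against 21.7%. Intronic peaks had the higher share in both width classes and both directions.

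The ends of matched intronic peaks coincided closely. Of 96 overlapping pairs of an intronic P7 peak and a P15 peak, 34 had identical ends, and 69 (71.9%) had both ends within 1 nt. Among exonic pairs 50 of 989 (5.06%) did, and among pairs outside genes 274 of 385 (71.2%). When the P7 intronic peak was at most 30 nt wide, 61 of 65 pairs (93.8%) matched within 1 nt, against 8 of 31 pairs (25.8%) with a wider P7 peak. The narrow exonic pairs matched in 10 of 66 cases (15.2%), and narrow pairs outside genes in 230 of 260 (88.5%). With the P15 replicate 2 list the contrast to exonic pairs was smaller. Narrow P7 peaks matched it within 1 nt in 74 of 84 intronic pairs (88.1%) and 17 of 27 exonic pairs (63.0%). For narrow P15 peaks the counts were 67 of 70 (95.7%) and 21 of 32 (65.6%).

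**Figure D3:**
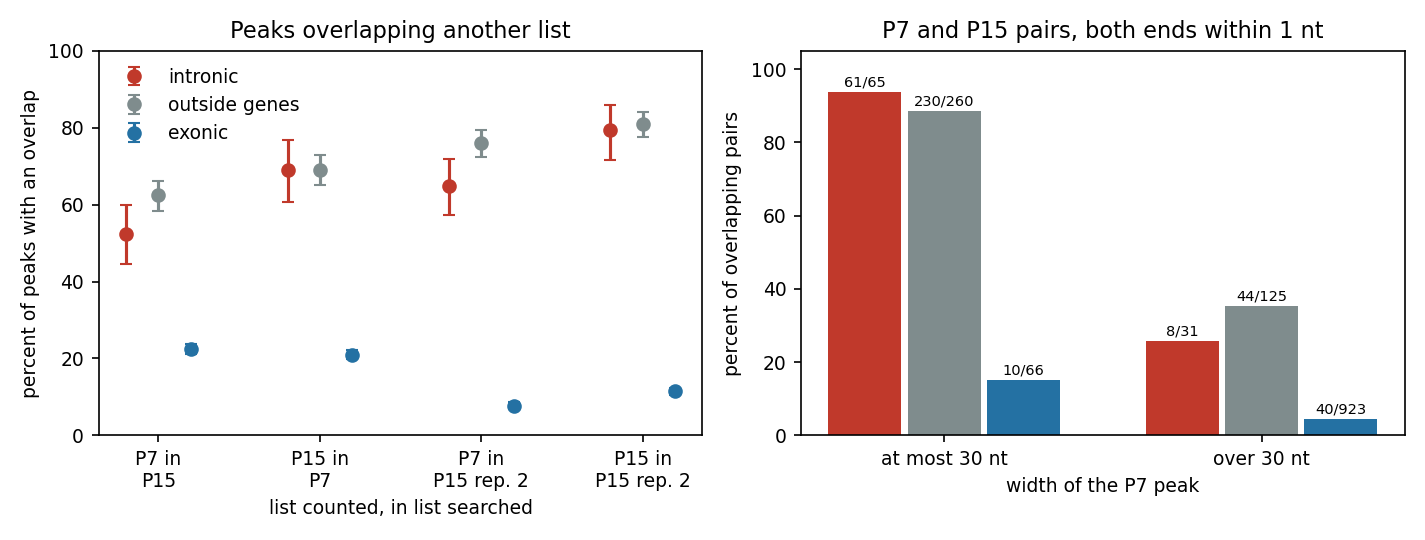
Left, percent of intronic, outside-gene and exonic peaks (y axis) that overlap another list for each pair of lists (x axis), with exact 95% binomial intervals. Right, percent of overlapping P7 and P15 pairs (y axis) with both ends within 1 nt, by width of the P7 peak (x axis), with counts above the bars, where narrow intronic pairs reach 61 of 65.

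Narrow intronic peaks lay deep in long genes, though this was not particular to them. No comparison with intronic positions in general was made. The median distance of narrow peaks to the nearest exon of any gene on the same strand was 3462 nt at P7 and 2720 nt at P15. The ranges were 53 to 112953 nt and 63 to 112953 nt. Clustered peaks had medians of 7467 nt at P7 and 4715 nt at P15, and lone wide peaks 3031 and 1268 nt. Host genes of narrow peaks had median lengths of 123781 and 110178 nt. The medians were 86566 and 178210 nt for hosts of clustered peaks and 81338 and 58382 nt for hosts of lone wide peaks. Protein-coding hosts held 100 of 119 narrow peaks at P7 and 64 of 72 at P15. In 17 of 119 and 15 of 72 cases the host also had an exonic peak in the same list.

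Several genes with a place in cerebellar biology carried such a narrow peak at both ages. In Foxp2, a transcription factor made in Purkinje cells, the peak spanned chr6:15227901-15227926 at P7 and chr6:15227902-15227925 at P15, 26357 nt from the nearest exon. In Cacna1c, which encodes the pore of an L-type calcium channel, both lists gave chr6:118791768-118791792. In Ptprd, a receptor phosphatase of synaptic adhesion, both lists gave chr4:76820168-76820191. In Nfix, a transcription factor of granule cell maturation, the 25-nt peak was displaced by 1 nt between chr8:84720781-84720805 and chr8:84720782-84720806. All 4 were also found in the P15 replicate 2 list.

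The same kind of peak occurred in hosts on none of the marker and function lists described below. Of these, Reg3d, a gut lectin gene, and Agbl1 carried it at both ages, as did the X-linked genes Cpxcr1 and Tex11, Tex11 being a meiosis gene. Sprr2b, a gene of the cornified skin envelope, carried a 25-nt peak at P7 and in the P15 replicate 2 list. The peaks farthest from an exon were a 25-nt peak in Galntl6 at chr8:58314517-58314541, 112953 nt away, and a 25-nt peak in Agbl1 at chr7:77031099-77031123, 93356 nt away, each with identical ends at both ages. These hosts and Galntl6 were singled out after their values were seen.

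Clustered peaks formed runs of neighbours in a few introns, and 6 hosts held such a group at both ages. Gm19951 had 4 peaks over 568 nt at P7 (chr12:99645063-99645630) and 5 over 600 nt at P15 (chr12:99645061-99645660). Cmss1, a ribosomal small subunit factor homologue, had 5 peaks over 563 nt at P7 and 3 over 309 nt at P15, 52817 and 52818 nt from the nearest exon. Kcnip1, which encodes a subunit that modulates A-type potassium channels, had 3 peaks over 303 nt at P7 and 4 over 321 nt at P15. In each of the 6 groups at least 1 outer edge lay within 3 nt between the ages, while the inner division into peaks differed in most.

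Cdk8, the kinase of the Mediator complex, had 2 peaks at P7 (chr5:146261016-146261107 and chr5:146261243-146261306) and 3 at P15, where the first was divided into chr5:146261013-146261052 and chr5:146261075-146261114. Gphn, which encodes the inhibitory synapse scaffold gephyrin, had 3 peaks at P7 and 2 at P15, the first of which began at the same base at both ages. Gm48099, a long noncoding RNA gene, had 2 at each age. The P15 replicate 2 list held a group at each of these 6 places. Single peaks of a group could be missing from a list: the P7 peak of Cmss1 at chr16:57391114-57391157 met neither other list, and that of Gphn at chr12:78351070-78351124 met the replicate 2 list but not the P15 list. None of the 6 hosts had an exonic peak at P7, and at P15 1 of them had, Gphn with 1 exonic peak.

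Other groups were seen in 1 of the P7 and P15 lists. At P7, groups of 2 peaks lay in Il31ra, Trpm3, Ppp2r2c, A330076H08Rik and Ogt, and Camk1d and Gm44511 had groups of 3 and 2. At the places of the last 2 groups the P15 list held lone peaks, whereas the P15 replicate 2 list held groups of 2. At P15 a group of 2 lay in Clasp2, which encodes a microtubule plus-end protein, and met no peak of another list. Ppp2r2c, a regulatory subunit of protein phosphatase 2A, and Ogt, the O-GlcNAc transferase, had the most exonic peaks among these hosts, 12 and 7 at P7. Across clustered peaks, 20 of 34 at P7 met the P15 list and 19 of 21 at P15 met the P7 list. The sequence of the clustered peaks was read only for Ppp2r2c.

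**Figure D4:**
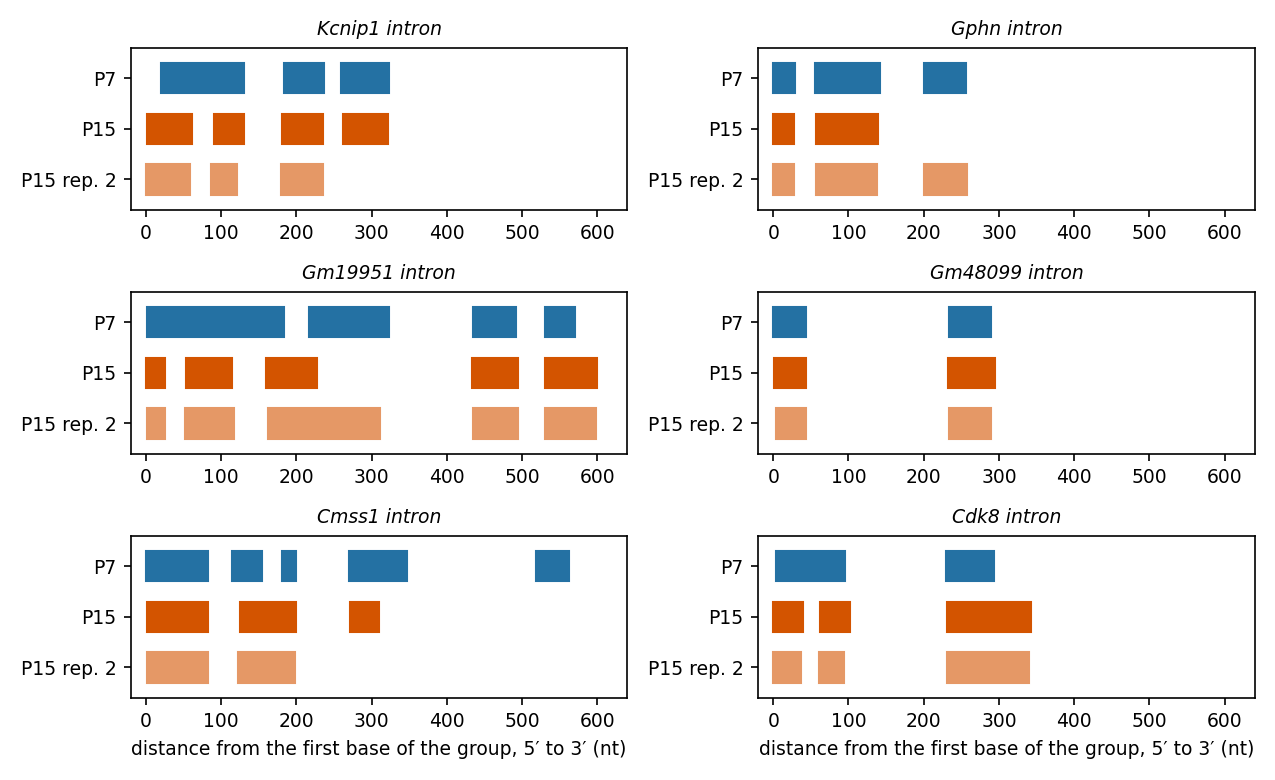
Positions of intronic peaks (bars) in the 6 introns that held a group at both ages, drawn 5′ to 3′ from the first base of each group in nt (x axis), for the P7, P15 and P15 replicate 2 lists (y axis). Most peaks overlap between lists, with exceptions in Cmss1 and Gphn, and wide P7 peaks in Cdk8, Kcnip1 and Gm19951 are divided at P15.

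Lone wide peaks held a larger share in the P15 list than in the P7 list, but less so in the P15 replicate 2 list. They made up 23 of 176 intronic peaks at P7 (13.1%, exact 95% interval 8.47 to 19.0) and 43 of 136 at P15 (31.6%, 23.9 to 40.1), against 29 of 158 (18.4%, 12.7 to 25.3) in the replicate 2 list, whose interval overlaps both. At P15, 12 of 43 (27.9%) met the P7 list, against 63 of 72 narrow peaks (87.5%). They also lay nearer exons at P15, with a median distance of 1268 nt, and 15 of 43 (34.9%) within 500 nt against 11 of 72 narrow peaks (15.3%). At P7 the median was 3031 nt and 5 of 23 lay within 500 nt. Of the 43 lone wide P15 peaks, 6 lay on a RefSeq tRNA gene, as described below, against 0 of 23 at P7. These lay 20, 149, 256, 493, 3190 and 32300 nt from an exon. The kinds were drawn from these widths, so no test is given.

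Host genes of lone wide peaks in the P15 list included Bsn, Kcnc1, Cyfip2 and Grm4, as well as Cd44 and Cobll1. Of these, Kcnc1 and Grm4 met the rule for named genes and the rest were chosen after their values were seen. A 51-nt peak lay 217 nt from an exon of Bsn, the presynaptic scaffold bassoon, a gene with 24 exonic peaks at P7 and 70 at P15. A 40-nt peak lay 501 nt from an exon of Kcnc1, which encodes a fast potassium channel, at chr7:46436732-46436771, and a 42-nt peak lay 270 nt from an exon of Cyfip2, an actin regulator. Grm4, the metabotropic glutamate receptor of parallel fibre terminals, had 3 intronic peaks at P15 (38 nt wide for the lone wide one, the other 2 narrow) and none at P7, with 3 exonic peaks at P7 and 10 at P15. None of the Bsn, Kcnc1 and Grm4 wide peaks was in the P15 replicate 2 list, whereas the Cyfip2 peak was. A gain of peaks cannot be told apart from a gain of host RNA per cell, of cells that make it or of depth here, since no peak has a count.

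**Figure D5:**
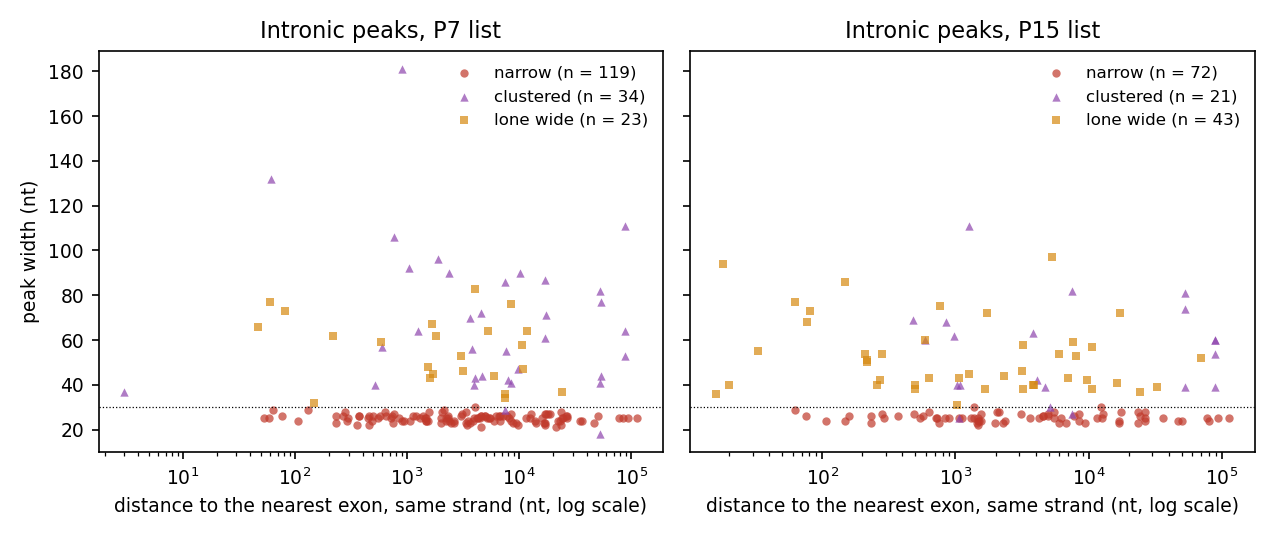
Width of each intronic peak in nt (y axis) against distance to the nearest exon on its strand in nt (x axis, log scale) for the P7 (left) and P15 (right) lists, with narrow, clustered and lone wide peaks marked and a dotted line at 30 nt. Narrow peaks span the whole range of distances, and lone wide peaks near exons are more numerous at P15.

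Over all intronic peaks the nearest exon lay at a median of 3934 nt at P7 and 2332 nt at P15, and 27 of 176 and 27 of 136 peaks lay within 500 nt. That nearest exon was upstream of the peak in 53.4% of cases at P7 and 51.5% at P15, so neither side predominated. The closest at P7 were in Ogt (3 nt, a 37-nt peak just past an exon), Tnpo2 (47 nt), Sprr2b (53 nt), Gm47012 (59 nt) and Zfp791 (60 nt). The closest at P15 were in Cep295 (16 nt), Mamdc4 and Phpt1 (18 nt), Gm11205 (20 nt), Igf2r (33 nt) and Zfp791 (63 nt). Few peaks crossed an exon boundary. On the exonic side of the rule, every peak had at least 15 nt on exons at each age, and 7 of 4097 P7 peaks and 14 of 4485 P15 peaks had more than 5 nt off them.

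Peaks on a small RNA gene of their strand overlap its exon, so the rule left them out. Among the peaks kept, small RNA genes were rarely near. In GENCODE, 1 of 176 P7 peaks and 2 of 136 P15 peaks lay within 1000 nt of a small RNA gene on the same strand, and the medians over peaks with any such gene listed were 252989 and 274064 nt. The Cep295 peak at P15 lay 16 nt from the small nucleolar RNA gene Gm24339 (chr9:15326464-15326539). The Zfp791 peak, chr8:85111876-85111952 at P7 and chr8:85111873-85111949 at P15, lay 60 and 63 nt from the gene Gm23388, annotated as a miRNA (chr8:85112012-85112068). Since exons of small RNA genes count as exons in the rule, the nearest exon of Cep295 and Zfp791 is that of the small RNA gene.

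The next nearest were a peak in Nwd1 1719 nt from Gm26237, a 31-nt peak in the imprinted noncoding RNA gene Meg3 2956 nt from Mir1906-1 at P15, the Tnpo2 peak 3317 nt from the small nucleolar RNA gene Gm25506, and a peak in A330076H08Rik 3913 nt from Mir344-2. In the miRNA libraries, mmu-miR-344-3p had 3 counts of 13059 in P7 replicate 1, 4 of 169054 in P15 replicate 1 and 2 of 94132 in P15 replicate 2, and mmu-miR-1906 had 1 count of 6828 in P7 replicate 2. The other libraries had 0 counts of them, so neither neighbour exceeded 4 counts in a library. The Tnpo2 peak and its neighbour shared a run of 13 nt, in capitals here, which is shown because they lie in the same host.
Tnpo2 peak: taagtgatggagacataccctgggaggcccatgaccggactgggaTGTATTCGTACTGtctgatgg
Gm25506: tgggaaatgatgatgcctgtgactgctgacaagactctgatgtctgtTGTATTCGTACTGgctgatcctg

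Transfer RNA genes, which the RefSeq table lists and the rule did not use, were the site of some wide P15 peaks. Of the 136 P15 intronic peaks 6 lay on a RefSeq tRNA gene (4.41%, exact 95% interval 1.64 to 9.36), and of the 176 P7 peaks 0 did, for which the exact 95% interval reaches 2.07%. Their hosts were 4930555B11Rik, 1700064H15Rik, Nfib, Fmc1, Gm11205 and 4930586N03Rik. In 5 of them the peak was 38 to 40 nt wide, began 36 to 39 nt after the start of the tRNA gene and ended 1 to 4 nt past its end, counted on the strand of the peak. The 86-nt peak in 4930555B11Rik instead covered the whole 72-nt gene. The table gives no strand for tRNA genes, and 4 of the 6 peaks were also in the P15 replicate 2 list. Peaks outside gene bodies lay on tRNA genes in 28 of 611 cases at P7 (4.58%) and 61 of 552 at P15 (11.1%).

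The intronic peaks came from 156 host genes at P7 and 121 at P15, of which 128 and 98 were protein-coding, and 81 hosts were common to both ages (51.9% of the P7 hosts and 66.9% of the P15 hosts). At each age 26 hosts also had an exonic peak, among 1564 genes with exonic peaks at P7 and 1762 at P15. How many genes with exonic peaks were common to both ages is not given, nor is the share over all annotated genes. These host counts are therefore description only. Hosts with more than 1 intronic peak numbered 14 at P7 and 9 at P15, and these were the hosts of the clustered groups named above, with Rbfox3 at P7 and Gm44511 and Grm4 at P15 as exceptions. In 4 P7 and 2 P15 cases the peak lay in the introns of more than 1 gene.

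With 156 host genes at P7 and 121 at P15 among all annotated genes, few members of any short gene list are likely hosts. The counts for the marker and function lists are therefore description only, and the share over all genes is not given. Of 26 Purkinje cell markers, Foxp2 hosted an intronic peak at each age. Of 21 granule cell markers, Nfix did at P7 and Nfib and Nfix did at P15. The Nfib peak was 39 nt wide and lay on a tRNA gene, 32300 nt from the nearest exon. Of 38 synaptic adhesion genes the host was Ptprd at each age. Among 35 channel and receptor genes tied to Purkinje cell firing the hosts were Cacna1c and Grik1 at P7 and Cacna1c and Kcnc1 at P15, while 13 and 20 of the list had exonic peaks. Of 48 RNA-binding and splicing genes Rbfox3, with 2 intronic peaks, was a host at P7 and Rbfox1 at P15. The lists for astrocytes and Bergmann glia, oligodendrocytes, molecular layer interneurons, microglia and blood, endothelial and mural cells and the miRNA pathway held 0 hosts at either age.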

How the data were processed

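Peak lists were deposited by the authors in BED format, with start, end and strand per peak and a score of 0 throughout, so no peak carries a height, p-value or library count. The caller of these peaks and its cut-offs are not given in the sources used. The submitters' processing notes name mm10, Bowtie2 2.4.2, STAR 2.5.2a, cutadapt 2.10 and UMI-tools among others. The miRNA files hold read counts per miRNA as deposited, 6828 to 169054 per library.

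Each peak was assigned with Python 3.11.15 to exonic, intronic or outside genes by GENCODE M21 on its strand, and bedtools 2.31.1 gave the same numbers of intronic peaks. Distances run from edge to edge, with an adjacent base at 1 nt. Shares of overlapping peaks were compared by Fisher's exact test (scipy 1.17.1), Benjamini-Hochberg adjusted over 6 tests, and the test was checked on simulated data. Peaks treated as units are not biological replicates, and intervals cover counting error over peaks only. tRNA genes come from RefSeq (GRCm38.p6). The members and gene lists were chosen with earlier results of these data known. The kinds of peak, the tRNA check and the adapter comparison, with its run of 10 nt, were added after the data were seen. Named genes are the hosts with the most intronic peaks, the widest and narrowest peaks, those nearest an exon or a small RNA gene, overlapping pairs and hosts on the lists; others were chosen after their values were seen. Sequences from 1 chromosome are not printed. Alternatives covered the overlap rule, width, host type, exon strand and merging of neighbours.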

Additional observations from a re-analysis of the deposited data

How the results depend on the processing

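The higher overlap of intronic than exonic peaks, in 4 tests, kept its direction in all 44 combinations of test and setting and an adjusted p under 0.05 in 43. The exception was the P15 list against the replicate 2 list counted from the replicate 2 side, where the difference fell from 68.0 to 4.15 points. The combinations include the tests against the replicate 2 list, which holds 785 exonic peaks. Few exonic peaks of the longer lists could meet it, while its intronic peaks number 158, against 176 at P7 and 136 at P15. The gap counted from those lists is therefore not free of the make-up of the replicate 2 list, whose part was not tested. The settings included overlap of 50% of the shorter peak, ends within 5 nt, width classes, merged neighbours and protein-coding hosts. Those for the replicate 2 list and for peaks outside genes, for narrow peaks alone and for tRNA genes were added after the data were seen. Against peaks outside genes, the P7 difference of -10.1 percentage points became -8.87 without peaks on exons of the opposite strand and -6.61 for peaks of at most 30 nt, neither of them past 0.05 after adjustment. The P15 difference of 0.0959 points changed sign to -0.639 with overlap of at least 50% of the shorter peak, -3.51 with both ends within 5 nt, -2.07 without hosts of 3 or more peaks, -4.12 with neighbours merged, -0.419 for peaks of at most 30 nt and -1.01 without tRNA peaks, and no setting brought it past the threshold. Counting peaks wider than 30 nt left 55 intronic peaks at P7 and 61 at P15. The median exon distance rose to 7948 nt (P7) and 7208.5 nt (P15) when exons of noncoding genes were ignored, and the median width of P15 peaks without a P7 overlap was 40 nt. The cause of these shifts was not tested. No paired analysis was possible because the peak lists carry no value per library. For the same reason leaving out a replicate could not be done, and depth per peak is unknown.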
